A study of Mus musculus with 12 samples.

Results

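The control group of an RNA-Seq series on dextran sodium sulfate colitis was described on its own, as a profile of the untreated mouse colon. It comprised 3 of the 12 libraries, taken by their label as control, and no treated library entered any level given here. As labelled, the libraries came from colon of wild-type male C57BL/6J mice, an inbred laboratory strain, aged 5 weeks. Genes that bear on the labelled strain, including 1 that it does not express, are described below. According to the study's methods, control mice had regular food and drinking water and no treatment, and the excised colon was washed in buffered saline with protease and phosphatase inhibitors before sections were frozen for RNA. The labels do not say from where along the colon each piece was taken, nor that each library is a separate mouse, so the spread below is that between these libraries. The mice of the other groups drank dextran sodium sulfate, alone (DSS) or with rhynchophylline (Rhy+DSS) or dexamethasone (DXM+DSS), and these libraries served only to show how much libraries of a group differed from each other.

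The colon absorbs water and salt and keeps a dense population of bacteria away from the tissue. Its surface is a single layer of epithelium in which absorptive colonocytes move ions and burn butyrate from bacterial fermentation, goblet cells secrete the mucus, and enteroendocrine and tuft cells sense the contents. Stem cells at the base of the crypts renew this layer. Beneath it lie fibroblasts, vessels and immune cells, with antibody-secreting plasma cells among the most active, and around them smooth muscle with its nerves, glia and pacemaker cells. A piece of whole colon holds all of these, and in bulk RNA fewer cells of a type and less RNA per cell cannot be told apart.

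Total counts were 15662589, 16462927 and 16601454 in controls 1, 2 and 3. Of the 54532 genes in the table, 24901 had a count in at least 1 of the 3 libraries. Levels of different genes are compared in FPKM, the authors' count scaled to gene length and library size, and levels of a gene across libraries in CPM, the count scaled to library size alone, by TMM over the 3 control libraries. Genes of the mitochondrial genome, which encodes subunits of the respiratory chain, held 21.0%, 17.0% and 6.33% of all counts in controls 1, 2 and 3. The 5 genes with the most counts were mt-Co1, mt-Cytb, mt-Nd1, mt-Nd4 and the nuclear gene Car1. mt-Co1, a core subunit of cytochrome c oxidase, had 112178, 105477 and 31876 CPM in controls 1, 2 and 3. Control 3 was the lowest library for each of these 4 mitochondrial genes, and the part of the mitochondrial share in the differences below was not tested. Over the 37 mitochondrially encoded genes the summed CPM spanned 4.08-fold, and it spanned 1.25-fold without control 3. The 84 genes of cytosolic ribosomal proteins took an even share, 4.12%, 3.86% and 4.03% of counts.

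A small number of genes supplied much of the RNA. The 100 most counted genes held 36.9%, 33.5% and 22.7% of the counts in controls 1, 2 and 3, a mean of 31.0% ± 7.37 (SD, n = 3). Without mitochondrially encoded genes the mean was 20.4% ± 1.76 (SD, n = 3). Protein-coding genes above 1 FPKM in all 3 libraries numbered 10092 of 22046. Above 100 FPKM there were 357, and above 1000 FPKM there were 24.

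The 20 most abundant nuclear protein-coding genes of at least 500 bases were led by products of the absorptive surface. Car1, a carbonic anhydrase that interconverts carbon dioxide and bicarbonate, had 1373, 14414 and 5473 FPKM in controls 1, 2 and 3. It was thus first by its mean and also uneven, with control 2 far above control 1. Guca2a encodes guanylin, the peptide that activates guanylate cyclase C to drive fluid and chloride secretion, and had 7177, 4489 and 3063 FPKM. Lypd8, a surface protein that keeps flagellated bacteria off the epithelium, had 4291, 5618 and 3948 FPKM. Krt8, a keratin of simple epithelia, was the steadiest of the 20 genes, at 4259, 4014 and 3319 FPKM, or 3864 ± 487 (SD, n = 3). Its partner Krt19 had 3615, 2265 and 1909 FPKM.

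Mucus and lectin genes formed a further group among these 20. Muc3, a membrane mucin of the brush border, had 2242, 2630 and 763 FPKM in controls 1, 2 and 3. Zg16, a lectin of the mucus that binds gram-positive bacteria, had 3619, 406 and 1053 FPKM, and Retnlb, a goblet cell product that acts on bacteria, had 2048, 295 and 3888 FPKM. Control 2 was the lowest library for both of these secreted products, while it was the highest for Muc3. The galectins Lgals4 and Lgals3, which bind galactose-bearing sugars, had means of 2461 ± 837 and 1965 ± 872 FPKM (SD, n = 3). The remaining genes of the 20 included Fth1, the heavy chain of the iron store ferritin, the translation factor Eef1a1, the cytochrome c oxidase subunits Cox8a and Cox6a1, the actin gene Actb, the calcium-binding S100a6, Rps15, Phgr1, 1810065E05Rik, and B2m, the light chain of class I major histocompatibility complex (MHC) molecules. Their means lay between 1380 FPKM for B2m and 4506 FPKM for Fth1.

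**Figure D1:**
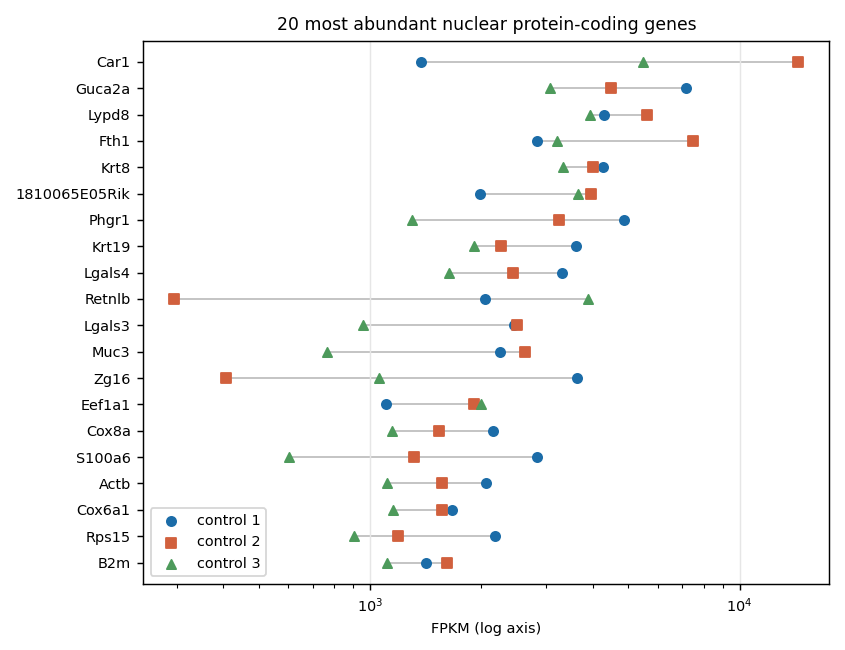
The 20 most abundant nuclear protein-coding genes, in order of mean FPKM, with 1 point per control library and a grey line from the lowest to the highest (log axis). Krt8 and B2m stayed close together, while Car1 spanned 1373 to 14414 FPKM and Retnlb 295 to 3888 FPKM.

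Of the 1451 genes that the file assigns to a transcription factor family, Id1, an inhibitor of basic helix-loop-helix factors, had the highest mean FPKM, with 490, 243 and 182 FPKM in controls 1, 2 and 3. Elf3, an epithelial ETS factor, followed with 354, 280 and 231 FPKM, and Ybx1, a nucleic acid binding protein, with 138, 298 and 287 FPKM. Cdx1 and Cdx2, the homeobox factors that set intestinal identity, had 183, 231 and 254 FPKM and 97.3, 121 and 193 FPKM. Klf4, a factor of differentiated epithelium, had 146, 245 and 223 FPKM, and Hnf4a, a nuclear receptor of the enterocyte programme, had 209, 193 and 172 FPKM. These genes were chosen after their values were seen.

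Between the 3 control libraries, many genes differed by more than counting error. For each of the 10704 genes with a mean count of at least 100, the highest CPM was divided by the lowest, with counts under 3 set to 3. This ratio had a median of 1.67 and passed 2-fold in 3510 genes, 32.8% of those tested. It passed 4-fold in 761 genes (7.11%) and 10-fold in 194 genes (1.81%). These shares are the background for every count of listed genes given below. Without control 1 the number past 2-fold was 1064, and without control 3 it was 1732, where leaving out a library cannot raise it. The median variance between the libraries was 34.5 times that of counting alone over the 3 libraries and at least 14.8 times in each pair, so no 2 of them were a single library deposited again.

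Control 1 lay apart from the other libraries most often. Of the 3510 genes past 2-fold, it was the library farthest from the middle one in 56.7%, on the low side in 1336 genes and on the high side in 655. Control 3 was farthest on the high side in 592 genes and on the low side in 539, and control 2 in 172 and 216. Among the same 3510 genes, the highest library was control 1 in 1202, control 2 in 695 and control 3 in 1613. The lowest library was control 1 in 1876, control 2 in 537 and control 3 in 1097. These numbers are the background for counts of listed genes by their highest or lowest library. Taken in pairs, controls 1 and 3 differed by more than 2-fold in 2827 genes, controls 1 and 2 in 1732, and controls 2 and 3 in 1064. The mitochondrial share was lowest in control 3 and highest in control 1.

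**Figure D2:**
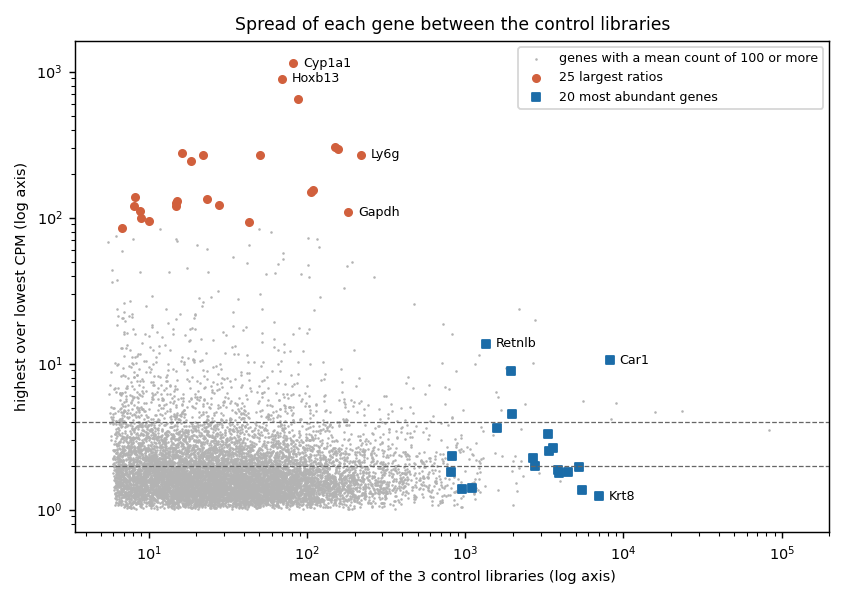
Highest over lowest CPM (log axis) against mean CPM (log axis) for the 10704 genes with a mean count of at least 100, with dashed lines at 2-fold and 4-fold. The 20 most abundant genes (squares) lie between 1.23-fold for Krt8 and 13.7-fold for Retnlb, and the 25 largest ratios (orange circles) belong to genes under 1000 CPM.

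Markers of 28 cell types were examined, and the absorptive colonocyte and pan-epithelial lists had the highest summed CPM in each library. Such a sum depends on the number, choice and length of the genes in a list, so it does not measure the share of a cell type. The 12 markers of absorptive colonocytes summed to 24355, 40466 and 24423 CPM in controls 1, 2 and 3, and 6 of the 12 passed 2-fold. Car1 supplied 16459 CPM of the sum in control 2, and without control 2 the remaining sums differed 1.00-fold. The 10 pan-epithelial markers summed to 21685, 17545 and 15805 CPM, and 3 of them passed 2-fold. Epcam, the adhesion molecule found on all gut epithelial cells, had 1926, 2048 and 2067 CPM, a ratio of 1.07. Epcam was thus nearly level, while other epithelial genes were not.

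The absorptive markers did not vary together. Car4, a membrane-bound carbonic anhydrase, had 2445, 735 and 710 CPM in controls 1, 2 and 3. Aqp8, a water channel, had 2389, 1068 and 208 CPM, and Slc26a3, the chloride-bicarbonate exchanger of the surface, had 1322, 839 and 479 CPM. Control 1 was the highest and control 3 the lowest library for all of these. Cyp2c55, a cytochrome P450 of the colon, ran the other way with 177, 4211 and 2129 CPM. Car1 was likewise lowest in control 1, at 1565 CPM against 16459 and 6494 CPM. Krt20, a keratin of mature surface cells, had 2083, 2494 and 1354 CPM and stayed within 2-fold.

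Goblet cell genes showed the widest spread of the epithelial lists. All 12 markers passed 2-fold and 10 passed 4-fold, with a median ratio of 8.12 against 1.67 over all genes. Their summed CPM was 12151, 1903 and 13585 in controls 1, 2 and 3, and control 2 was the lowest library for 10 of the 12. Without control 2 the sums differed 1.12-fold. Muc2, the gel-forming mucin that makes up the mucus layer, had 1459, 326 and 6445 CPM. Retnlb was likewise highest in control 3, with 1303, 188 and 2573 CPM. Of the 12 markers 6 were highest in control 1, 1 in control 2 and 5 in control 3. Among those highest in control 1, Fcgbp had 2286, 231 and 946 CPM, Clca1 had 1403, 138 and 599 CPM, and Tff3, a trefoil peptide of mucosal repair, had 860, 117 and 290 CPM. The lineage factors followed Muc2, with Spdef at 41.8, 12.1 and 192 CPM and Atoh1, which commits cells to the secretory fate, at 17.4, 10.4 and 71.6 CPM. Agr2, an endoplasmic reticulum protein needed for mucin folding, was also highest in control 3, with 189, 190 and 958 CPM. Controls 1 and 3 thus had similar sums made of different goblet genes.

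Hormone cells of the epithelium were uneven in a similar way. Of the 10 enteroendocrine markers 8 had a mean count of at least 100, and all 8 of these passed 2-fold. Pyy, the satiety peptide of the large bowel, had 166, 36.3 and 34.4 CPM in controls 1, 2 and 3, and Insl5, an insulin-like peptide of colonic L cells, had 90.2, 12.3 and 7.75 CPM. The granule proteins Chga and Chgb were highest in control 3 instead, with 50.6, 29.7 and 103 CPM and 39.8, 35.4 and 142 CPM. Gcg, which encodes glucagon-like peptides, had 6.59, 4.07 and 25.4 CPM. Tuft cell markers were low, with sums of 34.6, 19.9 and 23.8 CPM over 9 genes, and only Dclk1 reached a mean count of 100.

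Stem cell and proliferation genes were highest in control 3. The 9 crypt stem markers summed to 131, 179 and 578 CPM in controls 1, 2 and 3, much of it from Slc12a2, a chloride cotransporter of the lower crypt. Lgr5, the receptor that marks the stem cells, had 0.481, 3.29 and 4.43 CPM, or 7, 51 and 84 counts. Ascl2, the transcription factor of the same cells, had 0.549, 7.16 and 9.12 CPM. Olfm4, a stem cell marker of the small intestine that mouse colon lacks, had 2 counts in control 2 and none in controls 1 and 3. Of the 24 mitotic genes 21 had a mean count of at least 100 and 14 passed 2-fold, 12 of them with their highest level in control 3. Mcm2, a subunit of the replicative helicase, had 6.45, 10.4 and 27.9 CPM, while Mki67 was highest in control 1, with 144, 54.1 and 83.9 CPM.

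**Figure D3:**
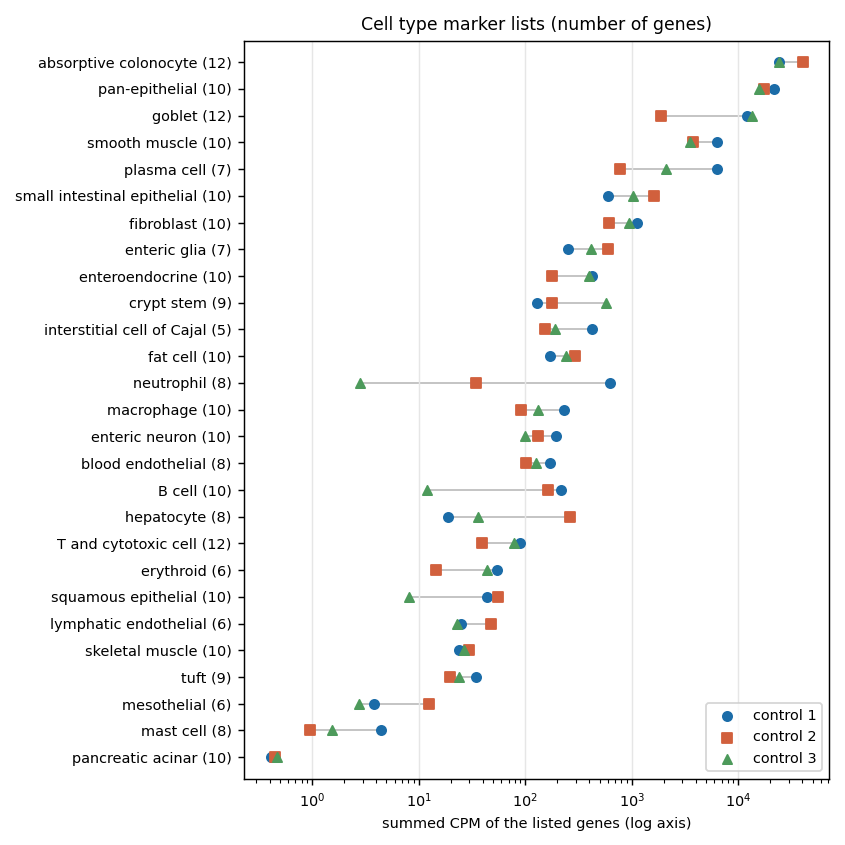
Summed CPM (log axis) of the cell type marker lists in each control library, ordered by mean, with the number of genes in parentheses. Epithelial lists lead, the goblet sum is lowest in control 2 at 1903 CPM, the B cell sum is lowest in control 3 at 12.0 CPM, and the male accessory gland list, which had no count, is not drawn.

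By the mean of the 3 libraries, smooth muscle had the highest summed CPM of the cell type lists outside the epithelium, although in control 1 the plasma cell list was slightly higher, at 6356 CPM. Smooth muscle markers summed to 6303, 3761 and 3541 CPM in controls 1, 2 and 3, and 6 of the 10 passed 2-fold, all with their highest level in control 1. Des, the intermediate filament desmin, had 1521, 628 and 591 CPM, Actg2, the enteric smooth muscle actin, had 1169, 574 and 572 CPM, and Acta2 had 1042, 637 and 498 CPM. Myh11, the smooth muscle myosin heavy chain, was nearly level at 970, 955 and 924 CPM, and so was the myosin kinase Mylk, at 353, 326 and 322 CPM. Without control 1 the smooth muscle sums differed 1.06-fold. The contractile genes did not share a single ratio between the pieces.

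Supporting cells of the wall were detected at lower levels. The 10 fibroblast markers summed to 1118, 609 and 941 CPM in controls 1, 2 and 3, and the collagen gene Col3a1 supplied 425, 214 and 300 CPM of this. Of the interstitial cells of Cajal, the pacemakers of gut movement, Kit had 31.1, 16.1 and 75.6 CPM and Ano1, their calcium-activated chloride channel, had 133, 38.6 and 35.2 CPM. Because these markers were highest in different libraries, they gave no common order. Among enteric neuron markers, Vip, a relaxing neuropeptide, had 42.2, 28.1 and 11.0 CPM, while Ret, which marks enteric neurons and their precursors, stayed within 1.17-fold. The glial factor Sox10 had at most 6.25 CPM, and the glial list owed its sum to Erbb3, which had 233, 578 and 404 CPM and is also expressed by gut epithelium. Endothelial Pecam1 had 23.3, 24.7 and 20.2 CPM.

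B cell genes differed widely between the libraries. B cell markers summed to 217, 164 and 12.0 CPM in controls 1, 2 and 3, and all 7 with a mean count of at least 100 passed 4-fold. Cd22, an inhibitory lectin of B cells, had 33.5, 18.5 and 0.738 CPM, and its counts were 488, 286 and 14. Cd79a, a signalling chain of the B cell receptor, had 51.2, 38.4 and 3.27 CPM, and Ms4a1, which encodes CD20, had 14.1, 16.6 and 0.896 CPM. Control 3 was the lowest library for all 10 B cell markers. Without control 3 the sums differed 1.33-fold.

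Plasma cell genes were also uneven. Igha, the heavy chain constant region of immunoglobulin A, the secreted antibody of the gut, had 5745, 573 and 1672 CPM in controls 1, 2 and 3. Jchain, which joins its dimers, had 524, 170 and 418 CPM, and Pigr, the epithelial receptor that carries it into the lumen, had 2631, 1358 and 2606 CPM. Control 2 was lowest for all of these. Of the 5 plasma cell markers past 2-fold, 3 were lowest in control 2 and 2 in control 3, and of the 15 antibody segment genes past 2-fold, 6 were lowest in control 2 and 9 in control 3. Over the 268 antibody segment genes the share of counts was 0.990%, 0.123% and 0.333%. Without control 1 their sums differed 2.23-fold, and without control 2 they differed 3.65-fold.

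Myeloid and T cell genes were low. Macrophage markers summed to 232, 90.9 and 133 CPM in controls 1, 2 and 3, with C1qa, a complement subunit made by tissue macrophages, at 72.3, 27.1 and 35.3 CPM. The T cell receptor subunit Cd3e had 4.46, 3.42 and 4.11 CPM, whereas the cytotoxic granule proteases Gzma and Gzmb had 13.1, 1.74 and 23.3 CPM and 7.35, 0.839 and 13.6 CPM. Cd3e, with a mean count under 100, was thus nearly level and the granzymes were not. Of the 12 T and cytotoxic cell markers 6 had a mean count of at least 100, and 4 of these passed 2-fold. Of the 8 macrophage markers with such a count 7 passed 2-fold. Neutrophil markers were near 0 in all 3 libraries except Ly6g: Mpo, Cxcr2, Retnlg, Camp and Ltf had at most 5 counts in any library, and S100a8 and S100a9 had at most 46 counts. Ly6g alone had 625, 31.4 and 2.32 CPM. Mast cell markers had at most 30 counts.

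Markers of tissues outside the colon checked the label. The 6 genes of male accessory glands had no count, which allows up to 3 counts, or 0.206, 0.194 and 0.158 CPM, per gene in controls 1, 2 and 3, and the 10 pancreatic acinar genes summed to 0.412, 0.452 and 0.475 CPM. Lct, Fabp1 and Apoa4, which mark small intestinal enterocytes, had at most 9 counts in any library, while Fabp2, a fatty acid carrier of both small and large bowel, had 537, 1391 and 890 CPM. Sis, the sucrase of the small intestine, had 0, 2.77 and 13.9 CPM, and Alpi, the intestinal alkaline phosphatase, had 55.5, 222 and 126 CPM. All 3 genes of the small intestinal list with a mean count of at least 100 passed 2-fold. Apob, an apolipoprotein of liver and gut, had 15.7, 255 and 32.1 CPM, with the liver product Alb at 0.206, 0.968 and 0 CPM. Sprr1a, a cornified envelope protein, had 38.1, 49.5 and 6.22 CPM beside squamous keratin Krt5 at 0.137, 0.194 and 0.105 CPM.

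Markers of some cell types of neighbouring tissue were also counted. The 10 fat cell markers summed to 171, 297 and 244 CPM in controls 1, 2 and 3, and 3 of the 5 with a mean count of at least 100 passed 2-fold. Of these markers, Adipoq, the hormone of fat cells, had at most 16 counts. Cidec, a lipid droplet protein, had 2.06, 59 and 13.1 CPM in controls 1, 2 and 3, so most of the sum came from other members. Lyve1, a receptor of lymphatic vessels, had 6.25, 8.65 and 5.90 CPM, and Ccl21a, the chemokine that draws lymphocytes to them, had 0.893, 17.3 and 0.475 CPM. The mesothelial list had no member with a mean count of 100. Of skeletal muscle, Myh1 and Myh4 had no count and Ckm, the muscle creatine kinase, had 4.05, 11 and 11.4 CPM. Blood was low by Hba-a1, an alpha globin, at 47, 8.97 and 26.3 CPM.

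Transport genes also differed between the libraries. Of the 20 water and ion transport genes 18 had a mean count of at least 100 and 14 passed 2-fold, 8 with their highest level in control 1 and 6 in control 3. Over all 3510 genes past 2-fold, these libraries were highest in 1202 and 1613. In addition to Aqp8, Car4 and Slc26a3, the sodium channel subunit Scnn1a was highest in control 1, with 148, 58.7 and 49.1 CPM in controls 1, 2 and 3. The genes named here for chloride secretion had the opposite order. Cftr, the chloride channel of the crypt, had 27.9, 45.6 and 125 CPM, Slc12a2, which loads chloride into the cell, had 78.6, 90.0 and 429 CPM, and the potassium channel Kcnq1 had 11.3, 31.6 and 86.9 CPM. Atp12a, the proton-potassium pump of the colon, had 64.6, 62.9 and 1.00 CPM. Of the genes named here, those of absorption were highest in control 1, and Cftr, Slc12a2 and Kcnq1 in control 3. Guca2a, whose peptide drives chloride secretion, was highest in control 1 instead. Other genes of the list past 2-fold are not reported here, so this split is not shown for the whole list.

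Genes of fuel use set control 1 apart from the other libraries. Of the 18 genes of butyrate use, fatty acid oxidation and ketogenesis 11 passed 2-fold, and control 1 was the lowest library for all 11. Ppara, the nuclear receptor that drives this programme, had 1.58, 23.0 and 34.3 CPM in controls 1, 2 and 3, and Hadha, of the trifunctional protein of fatty acid oxidation, had 103, 381 and 358 CPM. The butyrate transporters were level by contrast, Slc16a1 at 295, 319 and 285 CPM and Slc5a8 at 117, 80.1 and 121 CPM. Without control 1 the sums of the list differed 1.05-fold.

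The drug and steroid metabolism genes had the same low library. Of the 30 genes 27 had a mean count of at least 100 and 19 passed 2-fold, 17 of them lowest in control 1 and 14 highest in control 2. Abcb1a, the drug efflux pump P-glycoprotein, had 171, 1526 and 940 CPM, Aldh1a1, which makes retinoic acid, had 98.7, 669 and 642 CPM, and Ces1d, a carboxylesterase, had 7.76, 144 and 182 CPM. The glutathione transferase Gsta4 was level at 72.7, 75.8 and 79.9 CPM. Without control 1 the sums differed 1.496-fold.

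Most defence genes were highest in control 1. Of the 20 antimicrobial and oxidase genes 14 had a mean count of at least 100 and 12 of these passed 2-fold, 9 with their highest level in control 1. Slpi, a protease inhibitor of mucosal secretions, had 182, 27 and 3.48 CPM in controls 1, 2 and 3. Nos2, the inducible nitric oxide synthase, had 43.8, 8.20 and 3.01 CPM, and Duox2 and its maturation factor Duoxa2, which make hydrogen peroxide at the surface, had 213, 88.0 and 61.0 CPM and 58.9, 14.9 and 6.12 CPM. Saa1, an acute phase apolipoprotein, had 1470, 653 and 341 CPM. Lcn2, an iron-sequestering protein that is high in inflamed colon, had 23, 26 and 8 counts. The genes of class II MHC presentation followed, with 8 of the 10 tested past 2-fold and 7 of these highest in control 1. Cd74, the invariant chain, had 811, 277 and 258 CPM, and H2-Aa had 229, 26.4 and 13.1 CPM.

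Interferon-stimulated genes were highest in control 2. Of the 20 genes 19 had a mean count of at least 100 and 14 passed 2-fold, 11 of them with their highest level in control 2. Ifit1, which binds viral RNA, had 41.7, 249 and 94.7 CPM in controls 1, 2 and 3, and Ifit3 had 12.5, 66.9 and 18 CPM. Mx1 was near its highest level in control 1 as well, with 18.5, 21.6 and 3.32 CPM. The chemokine Cxcl10 had 4.53, 3.68 and 1.85 CPM.

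Genes of time of day, sterol supply and handling were more even than most lists. Of the 15 circadian clock genes tested 2 passed 2-fold, with Per1 at 87.2, 73.9 and 74.4 CPM, Per2 at 69.2, 78.7 and 64.5 CPM and Dbp, a clock output factor, at 103, 90.6 and 60.4 CPM in controls 1, 2 and 3. Of the 18 cholesterol synthesis genes tested 4 passed 2-fold, and Sqle, squalene epoxidase, had 64.5, 61.7 and 66.8 CPM. The immediate early genes, which respond within minutes to handling of tissue, summed to 1982, 1970 and 1995 CPM and 3 of the 15 tested passed 2-fold. Fos had 258, 226 and 204 CPM, whereas Egr1 was higher in control 3, with 35.2, 28.9 and 150 CPM. These 3 lists lay below the background share of 32.8% past 2-fold. Of the 13 heat shock and chaperone genes tested 5 passed 2-fold, with Hspa8 at 950, 707 and 647 CPM and the mitochondrial chaperone Hspd1 at 66.2, 148 and 265 CPM.

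The 25 genes with the largest ratios, of 10704, held a mixture of position, metabolism and immune genes. In the order of their ratios, the ratio just inside this list was 84.2 for Siglecg and the ratios just outside it were 83.5 for Fmo5 and 83.0 for Ido1. Cyp1a1, a cytochrome P450 induced through the aryl hydrocarbon receptor (AhR), led with 1, 3654 and 190 counts, or 0.0687, 236 and 10.02 CPM, in controls 1, 2 and 3. The ratio was 1145 with the single count set to 3, and the 95% counting interval of the ratio of the counts as they stand was 616 to 135668. Of the 5 AhR targets tested 4 passed 2-fold and 3 passed 4-fold, Cyp1a1 included. Ugt1a6a, a glucuronosyltransferase, had 3.50, 18.8 and 5.59 CPM, and Nfe2l2, the factor of the antioxidant response, had 113, 282 and 335 CPM. Nqo1, a quinone reductase, had 25, 101 and 58.5 CPM, Tiparp had 15.4, 25.7 and 22.9 CPM, and Ahrr, the repressor of the receptor, had 2.95, 3.36 and 4.80 CPM. Cyp1a2 had no count, Cyp1b1 had at most 5, and the ratios of the other 4 targets tested were at most 5.36. Counting intervals cover counting error only.

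Gal3st2c, a sulfotransferase that acts on galactose, shared the peak in control 2 with 0.549, 148 and 4.11 CPM. Promoter sequences for 12 of the 25 genes were found in RefSeq (GRCm38.p6). The 250 bases before the start of Cyp1a1 (chr9:57697363-57697612, plus strand) and of Gal3st2c (chr1:93990255-93990504, plus strand) are shown because both genes had their highest level in control 2 and both windows hold the letters searched. Capitals mark GCGTG, the core bound by AhR with its partner, and TATAAA, the TATA box, on either strand, so that CACGC and TTTATA are the same letters read from the other strand.
Cyp1a1: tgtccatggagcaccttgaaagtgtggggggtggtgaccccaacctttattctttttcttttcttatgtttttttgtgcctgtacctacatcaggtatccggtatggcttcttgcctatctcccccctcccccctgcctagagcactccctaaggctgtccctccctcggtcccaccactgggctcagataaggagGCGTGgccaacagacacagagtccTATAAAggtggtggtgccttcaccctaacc
Gal3st2c: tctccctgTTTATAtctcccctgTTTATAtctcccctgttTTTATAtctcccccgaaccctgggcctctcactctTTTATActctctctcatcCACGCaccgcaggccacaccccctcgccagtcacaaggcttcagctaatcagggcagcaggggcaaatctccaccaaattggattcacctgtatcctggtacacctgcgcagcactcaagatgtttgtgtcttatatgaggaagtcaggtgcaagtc
In Cyp1a1, GCGTG began 54 bases and TATAAA 30 bases before the start. In Gal3st2c, CACGC began 157 bases before the start and TTTATA appeared 4 times, from 242 to 175 bases before it. Over windows of 300 bases, 50 of them after the start, 7 of the 12 promoters held GCGTG and 6 held TATAAA. Over all 32851 RefSeq promoters of the same length 32.4% and 13.6% did. Of the genes with levels given here, S100g, Cyp4b1 and Hoxd13 were also highest in control 2 and held no GCGTG. Hoxb8, highest in another library, held none either. Slc10a2, Gapdh and Gjb5 were highest in other libraries and held GCGTG. These matches are a description and do not show binding.

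A further group of the 25 was almost absent from control 1 and present in controls 2 and 3. Osr2, a zinc finger factor of mesenchyme, had 0.0687, 134 and 129 CPM in controls 1, 2 and 3, and S100g, the vitamin D-dependent calcium carrier calbindin-D9k, had 0.893, 271 and 180 CPM. Cyp4b1, a further P450, had 1.10, 322 and 147 CPM. Slc10a2, the sodium-dependent bile acid transporter, had 1.44, 101 and 215 CPM. For Osr2, controls 2 and 3 were nearly equal, while control 1 had 1 count. The same group held Slc16a9, a monocarboxylate transporter family member, Ugt2b5, a glucuronosyltransferase, Malrd1 and Ugt8a, both with no count in control 1, Hoxb8 and Apol10c-ps. Against 3 counts in control 1, Ugt8a was at least 127-fold and Malrd1 at least 120-fold higher in the highest library. S100g, Rps3a3, Malrd1 and Gapdh overlap other annotated genes with a mean count above 100, and since the use of strand in counting is not given, reads of these genes and their neighbours may be mixed.

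**Figure D4:**
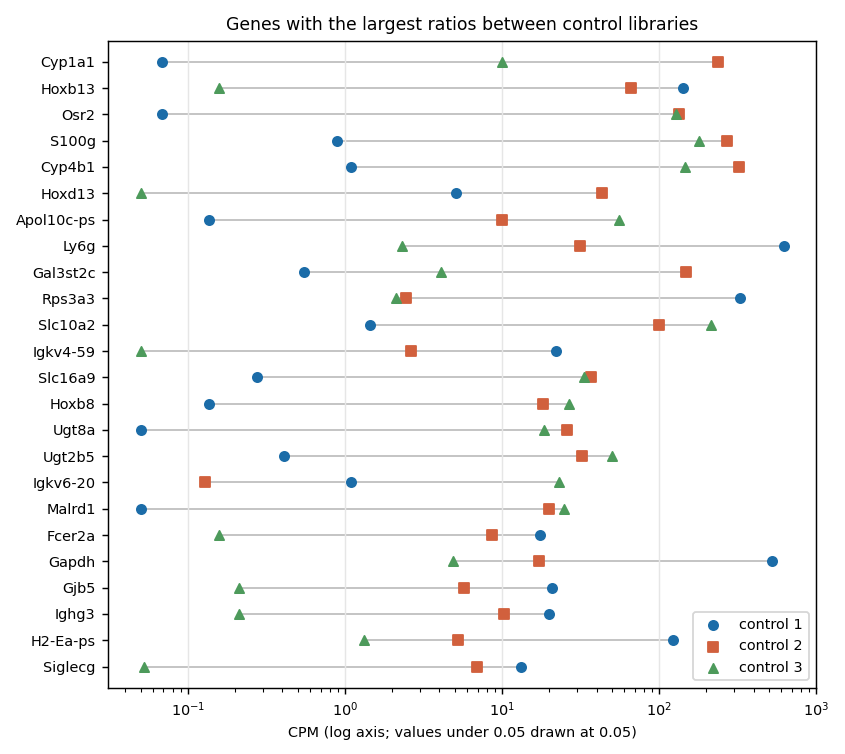
CPM (log axis) of genes among the 25 with the largest ratio between control libraries, those named in the text, in order of that ratio, with 1 point per library and libraries without a count drawn at the left end. Genes such as Osr2 and S100g are low in control 1 alone, and genes such as Hoxb13 and Fcer2a are low in control 3 alone.

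The Hox genes, which are expressed in an order along the body axis with group 13 the most posterior, separated the 3 libraries. Of the 39 Hox genes 17 had a mean count of at least 100, and 16 of these passed 2-fold. Hoxb13, the most posterior gene of the Hoxb cluster, had 142, 66.8 and 0.158 CPM in controls 1, 2 and 3, with 2066, 1035 and 3 counts. Hoxd13 had 5.08, 43.6 and 0 CPM, so control 3 had almost no transcript of either. Hoxb8, further forward in the cluster, had 0.137, 18.4 and 26.7 CPM, Hoxb7 had 1.24, 15.2 and 23.4 CPM, and Hoxb6 had 3.57, 64.1 and 34.9 CPM. Control 1 thus held Hoxb13 with little Hoxb6, Hoxb7 or Hoxb8, control 3 held these without Hoxb13, and control 2 held both. Hoxb9, which lies between them, was level at 51.9, 43.8 and 55.6 CPM.

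The other clusters did not all share this pattern. Hoxd8 had 1.30, 7.81 and 14.5 CPM and Hoxd10 had 2.95, 12.2 and 4.43 CPM in controls 1, 2 and 3. In the Hoxa cluster control 2 was the lowest library for the genes with the highest levels, with Hoxa10 at 64, 14 and 40.4 CPM, Hoxa13 at 50.1, 12.7 and 23.7 CPM, and Hoxa7 at 25.9, 9.61 and 40.5 CPM. Control 2 was also the lowest library for all 6 fibroblast markers past 2-fold. Genes of the Hoxc cluster had at most 13 counts in any library. The labels give no position for the pieces, so position along the colon and the individual mouse cannot be told apart.

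**Figure D5:**
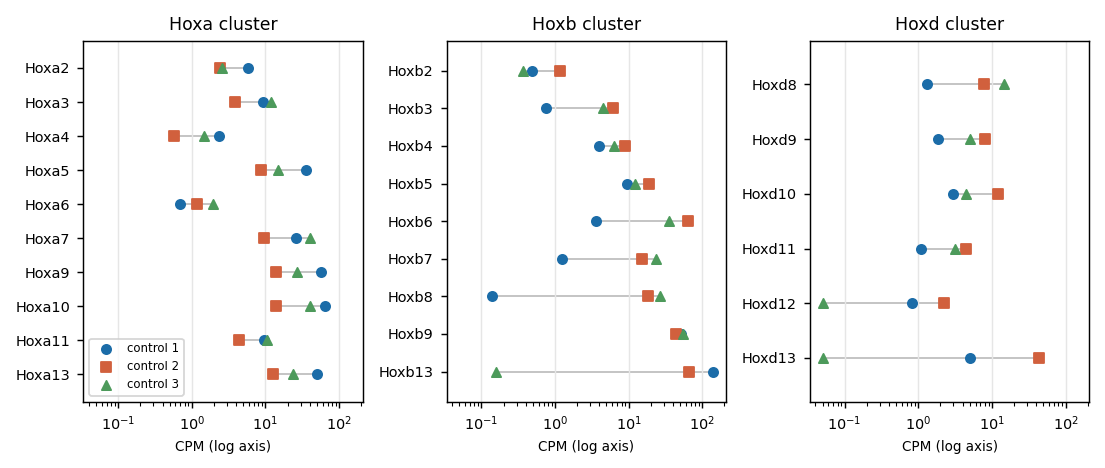
CPM (log axis) of the Hoxa, Hoxb and Hoxd genes with a mean count of at least 10, 1 point per control library, with libraries without a count drawn at the left end. Control 1 is lowest for Hoxb6, Hoxb7 and Hoxb8, control 3 is lowest for Hoxb13 and Hoxd13, and Hoxb9 is level.

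Several immune genes were also among the 25. Fcer2a, the low-affinity receptor for immunoglobulin E on B cells, had 17.6, 8.65 and 0.158 CPM in controls 1, 2 and 3, and Siglecg, an inhibitory lectin of B cells, had 13.3, 6.90 and 0.0527 CPM. Ighg3, an immunoglobulin G constant region, had 19.9, 10.3 and 0.211 CPM. The variable segments Igkv4-59 and Igkv6-20 had their highest level in different libraries, Igkv4-59 with 22.04, 2.65 and 0 CPM and Igkv6-20 with 1.10, 0.129 and 23.2 CPM. Gjb5, a connexin, had 20.9, 5.74 and 0.211 CPM.

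Several genes bear on the strain and sex in the labels. Ddx3y, Uty, Eif2s3y and Kdm5d of the Y chromosome were present in each library, with Ddx3y at 27.9, 45.8 and 41.4 CPM in controls 1, 2 and 3, and Xist, which marks the inactive X chromosome, had at most 1 count, as in males. Nnt, which C57BL/6J mice lack in part, had 0, 2 and 0 counts and was chosen after its values were seen. H2-Ea-ps, the class II alpha chain gene that C57BL/6 mice do not express because of a promoter deletion, had 122, 5.23 and 1.32 CPM, with 1780, 81 and 25 counts. Its partner H2-Eb1 had 171, 5.74 and 2.16 CPM. Pla2g2a, a phospholipase with a disrupted coding sequence in this strain, had 126, 4.19 and 21.6 CPM. H2-T22, a class Ib gene chosen after its values were seen, had 1.92, 42.2 and 3.06 CPM. All 3 libraries thus had counts of a gene that the labelled strain does not express, by far the most in control 1, while Nnt was near 0 in all 3. The class II presentation list was also highest in control 1, with sums of 1862, 841 and 660 CPM. The reason was not tested.

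Housekeeping genes gave no common level. Of 15 reference genes in use for PCR 7 passed 2-fold. Gapdh, the glycolytic enzyme most used for this purpose, had 527, 17.2 and 4.85 CPM in controls 1, 2 and 3. With the 6 other genes whose description begins with the name of this enzyme, the sums were 527, 18.2 and 5.38 CPM. Any copies under other descriptions were not summed. Reads of Gapdh match near-identical copies in the genome, and how such reads were counted is not stated, so its level is uncertain. The ribosomal protein genes Rpl30 and Rps3a are of the same kind, and Rpl30 with its copies summed to 283, 325 and 9.02 CPM. Rps3a3 had 326, 2.45 and 2.11 CPM, while the summed Rps3a family had 802, 874 and 932 CPM and was level. Among the other reference genes, Actb had 5039, 3846 and 2830 CPM, B2m had 1113, 1269 and 908 CPM, Ywhaz had 597, 544 and 470 CPM, and Hprt had 72.2, 106 and 95 CPM. Sdha, a subunit of succinate dehydrogenase, had 128, 336 and 402 CPM and so followed the fuel genes.

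The steadiest genes with a mean count of at least 1000 were none of these. The 10 smallest ratios ran from 1.00 to 1.03, within the counting interval of a ratio of 1. Nucb1, a calcium-binding protein of the Golgi, had 360, 360 and 361 CPM in controls 1, 2 and 3. Psmb1, a subunit of the proteasome, had 183, 180 and 181 CPM, Snx1, a sorting nexin of endosomes, had 93.7, 94.1 and 94.2 CPM, and Npm1, the nucleolar protein nucleophosmin, had 197, 200 and 194 CPM. Atp9a, Tcim, BC031181, Ddx46, Cdc42bpg and the gene spelled 2-Mar with the identifier ENSMUSG00000079557 completed the 10. They were chosen for this ratio, so it is a description of these 3 libraries.

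The spread between libraries was also estimated within each group. The biological coefficient of variation, edgeR's common estimate of the spread beyond counting, was 39.9% in the control group, 21.0% in DSS, 34.6% in Rhy+DSS and 29.7% in DXM+DSS. In pairs of control libraries it was 38.6% for controls 1 and 2, 47.4% for controls 1 and 3, and 31.7% for controls 2 and 3. Pairs were not taken in the other groups, so these values cannot be set against theirs. The coefficient of 21.0% took replicates 1 and 2 of DSS as separate libraries, and it was not estimated with them summed. For the 3510 genes past 2-fold in the controls, the median SD of log2 CPM within the DSS group was 0.22, against 0.17 over all 10704 genes. In Rhy+DSS the values were 0.40 and 0.28, and in DXM+DSS 0.37 and 0.27. For the 761 genes past 4-fold they were 0.38, 0.76 and 0.56 in DSS, Rhy+DSS and DXM+DSS. Genes that varied between the untreated pieces thus also had a wider spread within each other group, whose libraries the choice of these genes did not use. The filter on mean count used the control libraries alone. Genes with few counts in another group can have a wider SD there from counting error, and this part was not separated. With replicates 1 and 2 of DSS summed into 1 library, the value in that group for the 3510 genes was 0.25, against 0.18 over all 10704 genes.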

How the data were processed

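RNA of mouse colon was sequenced in 12 libraries, of which the 3 control libraries were analysed here. The deposited counts are whole reads per gene without normalization, and the authors' FPKM values are the same counts over gene length and 1 library number each (100% of 64549 values recovered within 0.1%). The submitters' processing notes name HISAT2 2.0.5, featureCounts 1.5.0-p3, DESeq2 1.16.1 and mm10. Strand use and the handling of multiply mapped reads are not given in the sources used here, and 0 columns belonged to samples outside the sample list.

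Counts were scaled with edgeR 4.0.16 (TMM over the 3 control libraries) in R 4.3.3, and further steps ran in Python 3.11.15. Ratios of the highest to the lowest CPM used genes with a mean count of at least 100, with counts under 3 set to 3 per library. Lists are described by counts of members and medians, with no test, since 1 group gives no comparison of groups. Counting intervals are exact binomial intervals at 95%. The ratio step was tested on simulated data. Total counts of 15662589 to 16601454 per library make counting error small at these levels. Libraries were compared without the other groups, except for the within-group spread.

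Named genes were the 20 nuclear protein-coding genes of at least 500 bases with the highest mean FPKM, the 5 genes with the most counts, the 25 largest ratios, the 10 smallest ratios at a mean count of at least 1000, and list members needed to describe a list; some of these genes are not reported here. A symbol held by several identifiers was read from the identifier with the most counts. The 43 lists (28 of cell types, 15 of functions, 532 entries) were written from general knowledge, and members and lists were chosen with earlier results of these data known. Alternatives were other scalings (RLE, upper-quartile, total count, all 12 libraries, FPKM), other filters, and each library left out in turn.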

Additional observations from a re-analysis of the deposited data

How the results depend on the processing

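The number of genes past 2-fold between control libraries was 3510. It stayed between 3274 and 4149 under RLE, upper-quartile and total-count scaling, TMM over all 12 libraries, FPKM as deposited and protein-coding genes only. It was 6703 at a mean count of at least 10, 921 at a mean count of at least 1000 and 761 at 4-fold, where fewer or more genes were tested or the threshold was higher. Leaving out 1 library gave 1064 to 2827 genes, with 1064 without control 1 and 1732 without control 3. A ratio over fewer libraries cannot be larger, so the direction of this change was fixed beforehand. Why the libraries differed in this was not tested. The percent of reads in the 100 most counted genes moved from 31.0 to 20.4 without mitochondrially encoded genes and to 48.7 as a share of summed FPKM, which by construction favours short genes, and lay between 28.4 and 35.3 with each library left out. Protein-coding genes above 1 FPKM in every library numbered 10306 to 10513 with each library left out, against 10092 with all 3, a number that leaving out a library cannot lower. Control 1 was the farthest library in 49.3% to 64.2% of genes past the threshold under the other scalings, thresholds and filters. For the summed CPM of the lists, a ratio was called moved by the size of its fold change alone. RLE scaling moved 0 of 46 ratios, and the median over members in place of the sum moved 8 of 43. Leaving out a library moved 14, 15 and 5 of the 46 ratios for controls 1, 2 and 3. The immediate early ratio, 1.01 by the sum and 1.48 by the median, was not called moved. No paired analysis was possible because the results come from no test and from a single group. With 3 libraries, depth did not limit the ratios of genes above 100 counts, and genes under 3 counts in a library have a ratio that rests on that floor.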
